A study of Mus musculus with 24 samples.

Results

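Has1, Prg4 and Chst4 were examined as 3 genes grouped by known roles of their products in lubrication or in making glycans. A role of these products on serosal surfaces was not tested in these RNA data. They were chosen by name, each through the 1 probe that carries it on the Illumina Mouse Sentrix-6 BeadChip: scl50269.3.1_250-S for Has1 (chromosome 17), scl096875.3_23-S for Prg4 (chromosome 1) and scl34335.3_203-S for Chst4 (chromosome 8). These are 3 of 46120 probes, of which 350 carry a gene name here. Chromosomes are those of the RefSeq annotation of GRCm38.p6.

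The mesothelium is the single layer of flat cells that lines the peritoneal, pleural and pericardial cavities and lets the organs slide past each other. Has1 is one of the hyaluronan synthases, membrane enzymes that build the long sugar chain hyaluronan and push it out of the cell. Prg4 encodes proteoglycan 4, or lubricin, a secreted mucin-like glycoprotein known best as the boundary lubricant of joints. Chst4 is a Golgi sulfotransferase that adds sulfate to N-acetylglucosamine on mucin-type glycans, and is known for making ligands of L-selectin in the high endothelial venules of lymph nodes.

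RNA of untreated male C57BL/6 mice, 7 weeks old, was measured on 24 arrays. The mesothelium came from the peritoneum and, as a second source, from pleura and pericardium combined, both dissected tissue of many mice and not purified cells, with 3 arrays each. The solid tissues were adipose, bladder, heart, liver, skeletal muscle and lung, also with 3 arrays each. Nothing in the labels tells if replicate arrays came from different animals or dissections, so p-values measure the spread between these arrays, which may be technical. In bulk tissue, fewer cells of a type and less RNA per cell cannot be told apart.

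Detection required a signal above nearly all negative controls of the array (a detection p under 0.01), and 8862 to 13441 probes were detected per array. Levels are log2 signals after background correction, an offset of 16 and quantile normalization, with the SD of 3 arrays. The mean log2 level over 8 probes of 6 mesothelial marker genes (Msln, Wt1, Upk3b, Lrrn4, Nkain4 and Gpm6a), taken per array, had a median of 10.92 in peritoneal mesothelium (range 10.79 to 11.22) and 9.83 in pleural and pericardial mesothelium (9.80 to 10.14). The solid tissues lay between 5.19 and 7.99 on the same scale. Only probes that the study names could be read, and it chose most of them on these arrays for being high in mesothelium. Higher levels in mesothelium are therefore largely built in, here and for the lists below, and are no independent check of the labels. No probe named here carries a marker fixed for the 6 solid tissues, so those labels were not checked. The 19 probes of 12 intestinal genes averaged 10.87, 10.23 and 7.94 on peritoneal arrays 1, 2 and 3, against 5.10 to 5.42 on the arrays of all other tissues. The 6 thymus and B lineage genes averaged 9.99, 8.37 and 9.39 on pleural and pericardial arrays 1, 2 and 3, against 6.02 to 6.45 on the peritoneal arrays and 5.14 to 6.55 on the solid tissue arrays. Markers of macrophages (2 genes), pancreas (2 genes) and seminal vesicle (1 gene) had medians of 9.18, 7.68 and 10.52 in peritoneal mesothelium, against 7.82, 5.07 and 7.12 in pleural and pericardial mesothelium.

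The upstream sequences of Has1 and Chst4 are shown, since no promoter entry for Prg4 was at hand. Each is the 250 bases before the annotated start, from RefSeq on GRCm38.p6, 5′ to 3′ on the minus strand, at chr17:17855189-17855438 for Has1 and chr8:110039335-110039584 for Chst4. The table of promoters used here held these 2 of the 3 genes. Capitals mark matches to the motifs listed next.
Has1: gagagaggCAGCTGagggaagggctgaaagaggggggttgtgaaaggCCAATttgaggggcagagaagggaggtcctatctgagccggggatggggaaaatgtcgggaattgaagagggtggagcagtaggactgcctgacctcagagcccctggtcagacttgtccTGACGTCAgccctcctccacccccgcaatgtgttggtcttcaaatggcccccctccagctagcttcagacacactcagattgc
Chst4: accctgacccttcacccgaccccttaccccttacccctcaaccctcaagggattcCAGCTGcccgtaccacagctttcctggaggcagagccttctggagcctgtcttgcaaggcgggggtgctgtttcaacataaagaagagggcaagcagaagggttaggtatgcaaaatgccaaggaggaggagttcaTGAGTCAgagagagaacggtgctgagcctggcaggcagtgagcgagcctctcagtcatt

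The motif list was written after both sequences had been read, so it is a description of them and nothing more. It held 8 motifs, searched on both strands. Both sequences held the E-box CAGCTG, which 13% of 32851 upstream sequences of the same length hold. Has1 also held CCAAT (33.8% of sequences) and the cAMP response element TGACGTCA (1.55%), the response element at bases -83 to -76 before the start. Chst4 held the AP-1 letters TGAGTCA (4.46%) at bases -59 to -53. Neither held TATAAA (12.4%), GGGCGG (32.7%), CATTCC (12.6%) or AGATAA (9.99%). The GC content was 58% for Has1 and 56.4% for Chst4, with a median of 52.4% over all sequences.

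A probe was called higher in a mesothelium than in a tissue where limma's B-statistic, the log odds of a difference, was above 0 and the mean at least 2 fold higher, and enriched where that held against all 6 tissues. Of all probes, 0.685% were enriched in peritoneal mesothelium and 0.431% in pleural and pericardial mesothelium. For single tissues, the shares called higher in peritoneal mesothelium were 6.77% against skeletal muscle, 6.3% against liver, 4.77% against heart, 3.27% against bladder, 3.12% against lung and 2.89% against adipose. For pleural and pericardial mesothelium they were 6.13%, 6.32%, 3.81%, 3.44%, 3.08% and 1.66% in the same order of tissues. The 3 genes were picked with results of these arrays known, so their calls describe them and do not test a list.

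Has1, the hyaluronan synthase, was detected on all 6 mesothelial arrays. Its log2 levels were 7.28, 7.09 and 6.87 in peritoneal mesothelium and 6.96, 7.45 and 7.95 in pleural and pericardial mesothelium. Each of these 6 arrays lay above all 18 arrays of the solid tissues, on 1 of which, lung replicate 1, the probe was detected. That detection was marginal, with a detection p against the negative controls of 0.0099, just under the limit of 0.01. The mean was 7.08 ± 0.20 in peritoneal mesothelium and 7.45 ± 0.50 in pleural and pericardial mesothelium (SD, n = 3 each).

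Lung had the highest mean Has1 level of the solid tissues, 5.67 ± 0.53 (SD, n = 3), but this rested on 1 array. The lung arrays read 6.29, 5.37 and 5.36 on the log2 scale, with the first well above the others. Without it bladder was the closest tissue, at a log2 difference of 1.52 from peritoneal and 1.89 from pleural and pericardial mesothelium. Lung replicate 1 also had the highest mean of the mesothelial markers among lung arrays, 7.86 against 6.99 and 6.93. The macrophage markers were highest on it too, 7.24 against 6.32 and 5.99. The part of either set in the Has1 level was not tested. The other tissues followed at 5.55 ± 0.26 in bladder, 5.24 ± 0.25 in skeletal muscle, 5.23 ± 0.43 in adipose, 5.09 ± 0.24 in heart and 5.04 ± 0.15 in liver (SD, n = 3 each). From lung down to liver every neighbour in this order overlapped the next, and Has1 was not detected on any array of the last 5 tissues, so no order can be read among them.

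Has1 was called enriched in both mesothelium sources. Over lung it was 2.65 fold higher in peritoneal mesothelium (log2 difference 1.41 ± 0.27 SE, limma adjusted p = 0.00075) and the pleural and pericardial fold was 3.44 (log2 difference 1.78 ± 0.27 SE, limma adjusted p = 5.5e-05). In tissues without detection the fold is a lower bound, taken with the tissue at the lowest signal of a detected probe. The probe was detected on 1 of 3 lung arrays, and with every lung array at no less than that limit, a value added after seeing the data, the folds over lung were 1.90 for peritoneal mesothelium, under the 2 fold of a call, and 2.46 for pleural and pericardial mesothelium. The bounds for peritoneal mesothelium were at least 1.70 fold over adipose, 1.69 fold over bladder, 1.39 fold over heart and 1.11 fold over skeletal muscle, and none can be given over liver. The corresponding bounds for pleural and pericardial mesothelium were 2.20 fold over adipose, 2.19 fold over bladder, 1.80 fold over heart, 1.29 fold over liver and 1.44 fold over skeletal muscle. The fitted differences from these 5 tissues had log2 values of 1.53 to 2.04 for peritoneal mesothelium and 1.90 to 2.41 for pleural and pericardial mesothelium.

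The peritoneal call of Has1 had the lowest B-statistic of those made for these genes. It was 1.4, against lung, and it fell below 0 when 1 of 5 arrays was left out: -0.78 without peritoneal mesothelium replicate 1, -0.22 without peritoneal mesothelium replicate 2, -0.02 without bladder replicate 3, and -0.93 without lung replicate 2 or lung replicate 3. With the offset of 50 the smallest log2 difference was 0.98, just under 2 fold. The pleural and pericardial call was lost when each pair of tissues was fitted alone (lowest B-statistic -1.32), and when 10 probes with irregular detection scores were kept in the background step (smallest log2 difference 0.28).

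**Figure D1:**
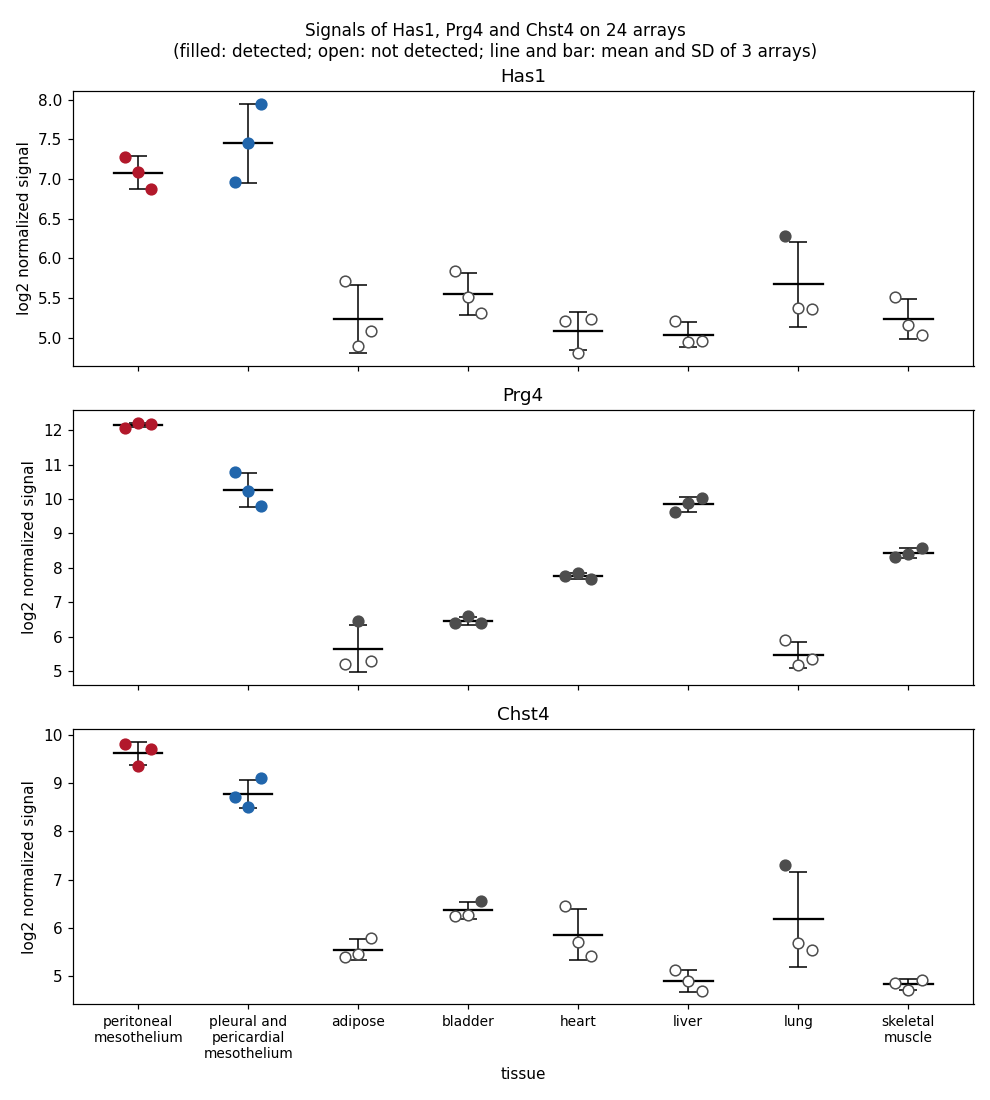
Log2 normalized signals of Has1 (top), Prg4 (middle) and Chst4 (bottom) on each of 24 arrays, by tissue, with 3 arrays per tissue. Filled points are detected and open points are not, and lines and bars give the mean and SD. All 6 mesothelial arrays lie above the solid tissues for Has1 and Chst4, whereas the liver arrays reach into the range of pleural and pericardial mesothelium for Prg4.

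Prg4, encoding lubricin, was detected on every array of both mesothelium sources, and it was the only one of the 3 also detected on all arrays of several solid tissues. Its log2 levels were 12.08, 12.20 and 12.18 in peritoneal mesothelium and 10.78, 10.22 and 9.80 in pleural and pericardial mesothelium. In liver they were 9.61, 9.89 and 10.03, which overlaps pleural and pericardial mesothelium but lies well below peritoneal mesothelium.

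The remaining tissues gave an ordered series of Prg4 levels. Skeletal muscle averaged 8.43 ± 0.14, heart 7.76 ± 0.10 and bladder 6.46 ± 0.12 (SD, n = 3 each), and from liver down to bladder the arrays of neighbouring tissues did not overlap. Adipose averaged 5.65 ± 0.69, with 1 of 3 arrays detected (the highest at 6.45). Lung was lowest at 5.47 ± 0.37 and had no detected array. The arrays of adipose overlapped both those of bladder and those of lung.

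Prg4 was enriched in peritoneal mesothelium and not in pleural and pericardial mesothelium. In peritoneal mesothelium it was 4.96 fold higher than in liver (log2 difference 2.31 ± 0.27 SE, limma adjusted p = 8.4e-07), 13.2 fold higher than in skeletal muscle and 51.9 fold higher than in bladder. Over adipose, with 1 of 3 arrays detected, it was 55.4 fold higher with all adipose arrays at no less than the detection limit, beside a fitted 90.5 fold. The log2 difference from heart was 4.39. Over lung it was at least 64.2 fold higher. All 3 peritoneal arrays were above every array of the solid tissues.

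Pleural and pericardial mesothelium was called above 5 of the 6 tissues for Prg4, by 3.58 fold over skeletal muscle, 5.68 fold over heart, 14.1 fold over bladder and at least 17.4 fold over lung. Over adipose the log2 difference was 3.91 with the adipose arrays at no less than the detection limit, beside a fitted 4.61. Against liver the log2 difference was 0.43 (95% interval -0.13 to 0.98, limma adjusted p = 0.31), so a difference of up to nearly 2 fold is within the interval. Of its 3 arrays 2 lay above every liver array.

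**Figure D2:**
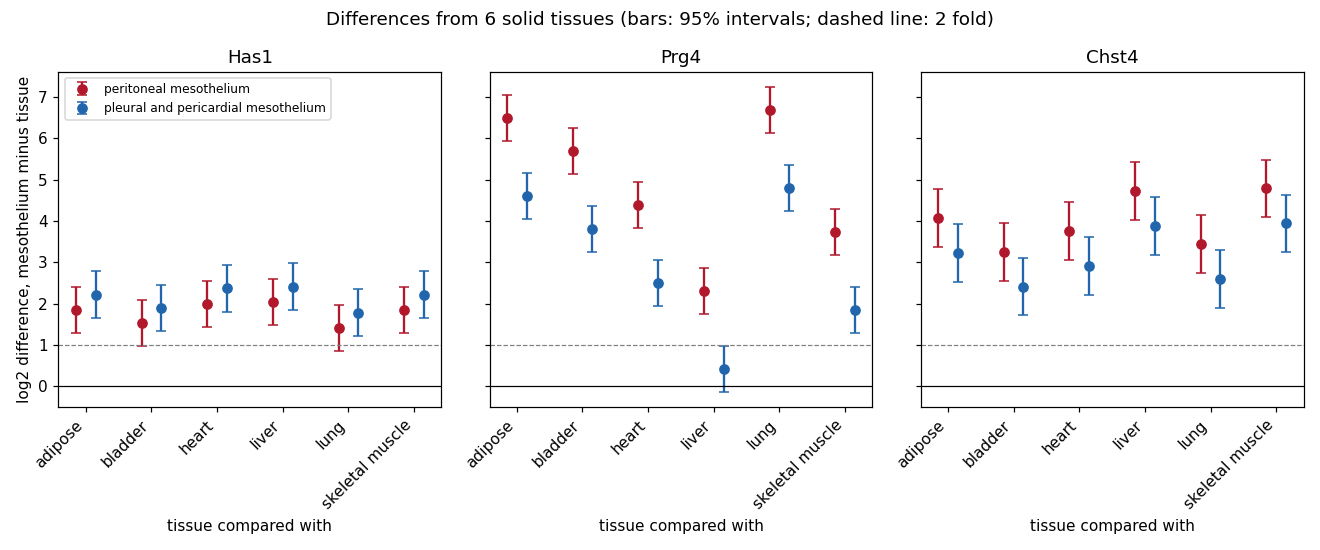
Log2 differences between each mesothelium source and 6 solid tissues for Has1, Prg4 and Chst4, with 95% intervals from the fit over 24 arrays. The dashed line is 2 fold. The interval of Prg4 in pleural and pericardial mesothelium against liver, -0.13 to 0.98, is the only one that includes 0.

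Chst4, the sulfotransferase, had the largest margin over all 6 tissues of the 3 genes in either source. Its log2 levels were 9.81, 9.35 and 9.71 in peritoneal mesothelium and 8.72, 8.51 and 9.10 in pleural and pericardial mesothelium. Every one of these 6 arrays was above all 18 arrays of the solid tissues. The means were 9.62 ± 0.24 in peritoneal mesothelium and 8.78 ± 0.30 in pleural and pericardial mesothelium (SD, n = 3 each).

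Outside the mesothelium Chst4 was detected on 2 of 18 arrays, 1 of bladder and 1 of lung. The bladder arrays read 6.26, 6.28 and 6.57 on the log2 scale. Lung was again unequal, at 7.31, 5.69 and 5.54, with the high value on the same lung array as for Has1. Heart averaged 5.86 ± 0.53, adipose 5.55 ± 0.22, liver 4.90 ± 0.22 and skeletal muscle 4.84 ± 0.11 (SD, n = 3 each). Adipose and liver did not overlap, but both lay below detection, and all other neighbours from bladder down overlapped.

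Chst4 was called enriched in both mesothelium sources. Bladder was the closest tissue, over which Chst4 was 9.55 fold higher in peritoneal mesothelium (log2 difference 3.26 ± 0.33 SE, limma adjusted p = 3.7e-07) and the pleural and pericardial fold was 5.32 (log2 difference 2.41 ± 0.33 SE, limma adjusted p = 1.8e-05). Over lung the folds were 10.9 in peritoneal mesothelium and 6.05 in pleural and pericardial mesothelium. With the arrays of these tissues at no less than the detection limit, the folds over bladder were 9.12 and over lung 8.74 in peritoneal mesothelium, and 5.08 and 4.87 in pleural and pericardial mesothelium. In the 4 tissues without detection Chst4 was at least 5.81 to 9.90 fold higher in peritoneal mesothelium, while for pleural and pericardial mesothelium these bounds were 3.24 to 5.51 fold. When each pair of tissues was fitted alone, the pleural and pericardial call was lost, with a lowest B-statistic of -0.97, and it was lost too with the 10 irregular probes kept (smallest log2 difference 0.81).

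The sources were next compared with each other, since both hold mesothelium. Of all probes 1.6% were called higher in peritoneal than in pleural and pericardial mesothelium. Prg4 was among them, at 3.70 fold (log2 difference 1.89 ± 0.27 SE, limma adjusted p = 8.5e-05), and arrays of the same replicate number differed by 1.30, 1.98 and 2.38. The 3 arrays of each source did not overlap.

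Chst4 was also above pleural and pericardial mesothelium on every peritoneal array, but its log2 difference of 0.84 was not called (95% interval 0.15 to 1.54, limma adjusted p = 0.21). This p depended on the arrays and the background step. It was 0.020 without lung replicate 1 (log2 difference 0.85) and 7.7e-05 with the irregular probes kept (0.77). In every other alternative run it stayed above 0.05, and in none was the difference called. Has1 ran the other way, with a log2 difference of -0.37 and overlapping arrays (95% interval -0.93 to 0.19, limma adjusted p = 0.69). Its differences by replicate number were 0.32, -0.36 and -1.08, so the sign was not shared. With peritoneal mesothelium replicate 3 alone, the peritoneal array lowest in intestinal genes, the log2 differences were 1.92 for Prg4, 0.93 for Chst4 and -0.58 for Has1. Prg4 then kept its call (limma adjusted p = 0.010), but this array was chosen after seeing the data and is assumed to vary like the arrays of the other tissues. It was also the peritoneal array highest in the mesothelial markers (11.22) and in Dcn (15.37).

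**Figure D3:**
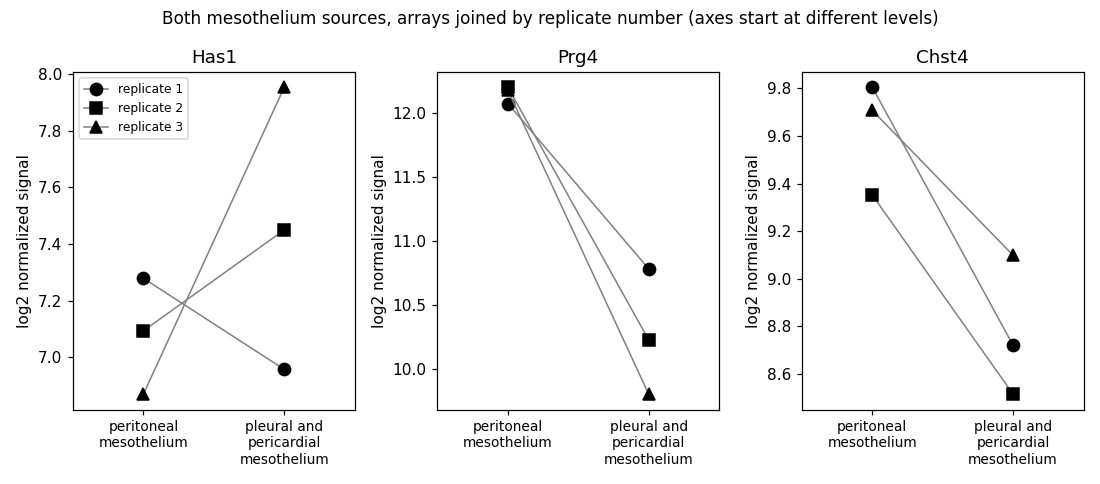
Log2 normalized signals of Has1, Prg4 and Chst4 on the 3 arrays of peritoneal mesothelium (left) and of pleural and pericardial mesothelium (right), joined by replicate number. Prg4 and Chst4 are lower in pleural and pericardial mesothelium on all 3 lines, and the Has1 lines run in both directions.

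Among the 3 genes, Has1 and Chst4 had the most similar profile over the 8 tissue means (Pearson r = 0.95, Spearman rho = 0.79). Prg4 was less like either, at r = 0.62 with Has1 and 0.61 with Chst4. Over the 18 solid tissue arrays alone r was 0.60 for Has1 with Chst4, -0.49 for Prg4 with Has1 and -0.59 for Prg4 with Chst4. These values describe arrays that share their tissue, and in these tissues Has1 and Chst4 are mostly below detection.

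The 5 named probes most like each gene over the 8 tissue means were picked from 301 named probes of other genes detected on all 3 arrays of some tissue. Nearly all such names come from the study's list of mesothelial genes, so a like pattern is built into the choice: the median r was 0.74 for Has1, 0.59 for Prg4 and 0.84 for Chst4 over named probes, beside -0.03, -0.02 and -0.02 over all detected probes. For Has1 they were Cybrd1, a ferric reductase (r = 0.98), Cldn15, a claudin of tight junctions (0.97), 2010107G12Rik (0.97), Aldh1a2, an enzyme that makes retinoic acid (0.97), and Sema3d, a secreted semaphorin (0.96). Cybrd1 averaged 7.36 in peritoneal mesothelium and 7.67 in pleural and pericardial mesothelium on the log2 scale, and like Has1 its mean was higher in pleural and pericardial mesothelium.

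Chst4 had the closest likenesses. Celf4, an RNA-binding protein, Ephb6, an Eph receptor, and Lrrn4, a leucine-rich repeat membrane protein, each had r = 0.99, and Pkhd1l1 and Aldh1a2 had r = 0.98. For Prg4 the highest value was 0.86, with the acute-phase gene Saa3. Saa3 averaged 13.43 in peritoneal mesothelium, 10.66 in pleural and pericardial mesothelium and 8.83 in liver, its highest solid tissue. A730046J19Rik, Dhrs9, Krt76 and Acot11 followed at r = 0.84 each. Of all detected probes, 50 had an r above 0.9 with Has1, 3 with Prg4 and 118 with Chst4.

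**Figure D4:**
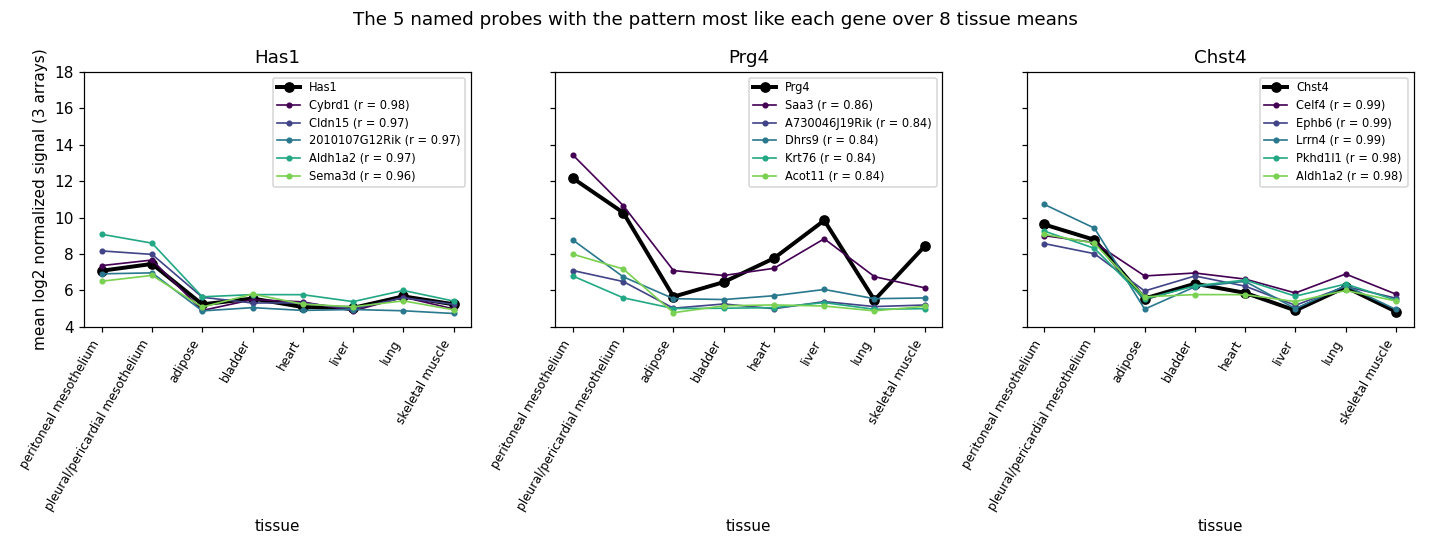
Mean log2 normalized signal over 8 tissues for each gene (thick black line) and for the 5 named probes with the highest Pearson r with it. Has1 and Chst4 are matched closely, with r of 0.96 to 0.99, while for Prg4 the highest r is 0.86 and the 5 probes shown stay low in skeletal muscle.

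Other genes of the same pathways were counted from lists of hyaluronan, surface mucin, sulfation, selectin and matrix glycan genes. Only probes that the study names could be counted, and it chose most of them on these same arrays for being high in mesothelium. It also sorted them by the source in which they were enriched. The counts are therefore not independent evidence of direction or of a difference between the sources. Of 28 hyaluronan genes Has1 alone was named. Among all probes, the median of the smallest log2 difference over the 6 tissues was -0.29 in peritoneal mesothelium and -0.30 in pleural and pericardial mesothelium.

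Of 17 surface mucin and lubricant genes 6 besides Prg4 were named, with 1 probe each. In peritoneal mesothelium 5 of these 6 were enriched, and in pleural and pericardial mesothelium 1 was, beside 0.685% and 0.431% of all probes. The study had listed these 5 as enriched in peritoneal mesothelium only, on these same arrays. It had listed the other as enriched in pleural and pericardial mesothelium only, so this split was built in. The median smallest log2 difference was 2.34 in peritoneal mesothelium and 1.02 in pleural and pericardial mesothelium. Muc16, a large membrane mucin that binds mesothelin, averaged 11.20 in peritoneal mesothelium and 9.79 in pleural and pericardial mesothelium, with bladder next at 8.44. Like Prg4, which the study also listed as peritoneal only, it was called higher in peritoneal mesothelium than in the other source (log2 difference 1.41, limma adjusted p = 0.0052). Sdc3, a heparan sulfate proteoglycan, was the one enriched in pleural and pericardial mesothelium (11.20, against 10.77 in peritoneal mesothelium). Muc2 and Muc13, also in the list of intestinal genes, were detected on 3 and 2 arrays in all.

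Of 31 sulfotransferase and sulfatase genes 2 besides Chst4 were named. Both probes of Sulf1, which removes sulfate from heparan sulfate, were enriched in both sources, with 11.31 and 10.30 in peritoneal mesothelium and 11.03 and 10.04 in pleural and pericardial mesothelium. Galns, a lysosomal sulfatase, was enriched in peritoneal mesothelium only by its call (6.59, against 5.88 in pleural and pericardial mesothelium). Their difference between the sources was not called.

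In the selectin list, 2 of 16 genes besides Chst4 were named, and both were enriched in peritoneal mesothelium and not in pleural and pericardial mesothelium. Over all probes 0.685% were enriched in peritoneal mesothelium. The study had listed both genes as peritoneal only on these same arrays, so this too was built in. Selp, the platelet and endothelial selectin, averaged 10.52 in peritoneal mesothelium and 8.95 in pleural and pericardial mesothelium. Cd34, a sialomucin that can carry L-selectin ligands, averaged 11.75 in peritoneal mesothelium and 10.94 in pleural and pericardial mesothelium. Neither was called different between the sources by the B-statistic and 2 fold. The log2 difference was still 1.57 for Selp (limma adjusted p = 0.032) and 0.81 for Cd34 (limma adjusted p = 0.065), both higher in peritoneal mesothelium.

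The list of small proteoglycans and matrix glycan genes had 16 probes of 12 named genes out of 18. Among them Itln1 is also in the list of intestinal genes and was detected on 3 arrays in all. In peritoneal mesothelium 15 of the 16 probes were enriched, in pleural and pericardial mesothelium 1 was, and 11 were called higher in peritoneal mesothelium than in the other source. Over all probes these shares were 0.685%, 0.431% and 1.6%. The study had listed all the named genes but Lgals7 as enriched in peritoneal mesothelium only, on these same arrays. The split between the sources was thus built in and is no result about matrix glycan genes. Dcn, the collagen-binding proteoglycan decorin and a fibroblast gene, averaged 15.15 in peritoneal mesothelium and 14.05 in pleural and pericardial mesothelium. Peritoneal mesothelium had the highest mean of the 8 tissues for it, and the part of such cells in the Prg4 level was not tested. Lgals7, a galectin that the study had listed for both sources, was the exception here, at 10.21 in both sources and enriched in both.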

How the data were processed

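Total RNA was amplified, hybridized to the Illumina Mouse Sentrix-6 BeadChip and summarized by the authors in BeadStudio. They deposited signal intensity values before normalization, with background already subtracted (36.0% at or below 0), and a detection score that is 1 minus a p-value. A second deposited table holds the authors' quantile-normalized intensity values (Lumi), used as an alternative. Here the signals were corrected with the normexp step of limma 3.58.1 in R 4.3.3, with 1616 negative controls inferred from the scores, leaving out 10 probes whose scores are off their steps. An offset of 16, log2 and quantile normalization followed. One limma fit (assumed changed share 0.01) had 1 mean per tissue over 24 arrays, with Benjamini-Hochberg adjustment over all probes of a comparison. Intervals are at the 95% level. No 2 arrays held the same values, and the number of arrays limits the precision.

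The genes named are the 3 given, the 5 probes most like each, and named members of the lists. The genes and lists were chosen with earlier results of these data known. Names came from the study's tables. Naming another 9744 probes through numbers or accessions in their identifiers was tried, with values seen, and then not used: it goes past the naming rule, and of 97 study-named probes open to the check 92 had the same gene and 5 another. The scripts were tested on simulated data.

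Same-numbered arrays of the mesothelium sources deviated together (r = 0.48, 0.42 and 0.52, against -0.34 to -0.12 for different numbers). Liver with each mesothelium source, bladder with heart, and lung with skeletal muscle also had an r above 0.1 for every shared number, with lower values (0.14 to 0.32). The other pairs of tissues did not. The labels do not say what a number marks. Since the study names no block, the block was an alternative. Others were another background step, offset, scaling, filter, call rule, pairwise fits, the authors' values, and each array left out.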

Additional observations from a re-analysis of the deposited data

Results flagged for a closer look

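Prg4 differed between the mesothelium sources, by a log2 difference of 1.89 (12.15 ± 0.07 in peritoneal mesothelium and 10.27 ± 0.49 in pleural and pericardial mesothelium, SD, n = 3 each, limma adjusted p = 8.5e-05), higher in the peritoneal array of all 3 same-numbered pairs. It was picked out because the test of the difference between the sources called it, while the same test called neither Has1 nor Chst4. The mesothelial markers also had higher medians in peritoneal mesothelium, 10.92 against 9.83 in pleural and pericardial mesothelium, and so had Dcn (15.23 against 14.14) and the markers of macrophages (9.18 against 7.82), intestine (10.23 against 5.14), pancreas (7.68 against 5.07) and seminal vesicle (10.52 against 7.12). The thymus and B lineage genes went the other way, with medians of 6.39 in peritoneal and 9.39 in pleural and pericardial mesothelium. Most names of these markers come from the study's list of genes high in mesothelium, so higher levels in a source are partly built in. The part of any of these cells in the Prg4 difference was not tested. No test for outlying arrays was run in the groups of 3 arrays, though each array was left out in turn.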

How the results depend on the processing

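Prg4 kept its call over all 6 tissues in peritoneal mesothelium and its call between the sources under every alternative run, Chst4 kept its peritoneal call, and no result changed sign. Calls of Prg4 in pleural and pericardial mesothelium over single tissues were not rerun. The calls that were lost are given by their smallest log2 difference or lowest B-statistic. Has1 in peritoneal mesothelium lost its call with each array shifted to a minimum of 1 (0.97), with the offset of 50 (0.98), and with peritoneal mesothelium replicate 3 alone (1.19, an alternative chosen after seeing the data, in which the lone array is assumed to vary like the other tissues). It lost it in 5 of the 24 fits that left out an array, over which the value was 1.25 to 1.52. When tissues were fitted pair by pair, Has1 in both sources (1.41 in peritoneal and 1.78 in pleural and pericardial mesothelium) and Chst4 in pleural and pericardial mesothelium (2.41) were not called. The enriched probes then numbered 196 in peritoneal mesothelium, against 316 in the fit over 24 arrays, and 78 in pleural and pericardial mesothelium, against 199.

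Keeping the 10 probes with off-step scores gave an inferred SD of the negative controls of 159 to 789, against 14.1 to 42.95 without them. Has1 fell to 0.18 in peritoneal and 0.28 in pleural and pericardial mesothelium, and Chst4 in pleural and pericardial mesothelium to 0.81. The counts were 175 and 114 enriched probes, 364 higher in peritoneal and 256 higher in pleural and pericardial mesothelium, against 739 and 552 in the fit as reported. With peritoneal replicate 3 alone they were 487 and 317. The cause of the other changes was not tested.

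With the replicate block no call changed: Prg4 differed by 1.89 between the sources (limma adjusted p = 0.00017), Chst4 by 0.84 and Has1 by -0.37, and 749 probes were higher in peritoneal mesothelium. The block gives a replicate number the same shift in all tissues. It therefore cannot fully take up deviations that only some tissues share, as the mesothelium sources do. Signals near background, as for Has1 outside the mesothelium, limit what can be said of dim probes.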
